A study of Mus musculus with 16 samples.

Results

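The genes described here are 8 genes of DNA replication, chosen by name for their place on the S phase side of the cell cycle: Cdc6, Mcm3, Mcm6, Prim1, Prim2, Rpa1, Timeless and Dtl. These members and the gene lists below were chosen with earlier results of these data known, so the counts given beside all genes are descriptive. All 8 were found by symbol among the 5921 genes held, and all 8 were among the 2620 genes tested, so no member was lost to the filter on low values. RNA had been sequenced from microdissected ventricles of mouse embryos at E11.5 (days of embryonic development), with 4 libraries in each of 4 groups. A first pair of groups came from a line in which exons 2 and 3 of Atf4 are flanked by loxP sites, as control and as conditional knockout (cKO), and a second pair from a line in which exon 2 alone is flanked. In both cKO groups the Xmlc2-Cre transgene, described as specific to cardiomyocytes, is meant to remove the floxed part. By this design the other cells of the ventricle are not targeted. No drug or other treatment was given. The genotype label of all 16 samples reads C57BL/6 WT, cKO included, and the sources used here do not say whether the controls carried the floxed alleles or the transgene. The exon 2-3 line forms batch 1 and the exon 2 line batch 2, so each cKO was compared with the controls of its own line. The study asks what ATF4, a transcription factor of the cellular stress response, does in the developing heart.

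DNA replication starts at origins that are loaded with the MCM helicase in G1 phase. CDC6 is the ATPase that, with the origin recognition complex, loads the helicase, and MCM3 and MCM6 are subunits of its ring. PRIM1 and PRIM2 are the catalytic and the large subunit of primase, which lays down the RNA primer of every new strand. RPA1 is the large subunit of the protein that coats single-stranded DNA, TIMELESS travels with the fork and protects it, and DTL is the substrate receptor of the ubiquitin ligase that destroys the licensing factor CDT1 during S phase. Many such genes are transcribed in late G1 by E2F factors. Embryonic cardiomyocytes divide, so the ventricle at this stage expresses them.

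The bases before the start sites were searched for the letters of motifs known from cell cycle promoters. RefSeq promoter windows on GRCm38.p6 were found for 7 of the 8 members, Prim2 being the other, and the 250 bases before each listed start were searched on both strands. The listed start lies 442 bases inside the deposited row for Cdc6, 71 for Rpa1 and 6003 for Timeless, so the searched bases lie partly or wholly within those rows. The E2F letters TTTCCCGC, TTTGGCGC, TTTCGCGC or TTTGCCGC occurred in 3 of these 7 windows (Mcm6, Cdc6 and Dtl) and in 1.86% of all 32851 windows. The NF-Y letters CCAAT occurred in 5 of the 7 (Mcm3, Mcm6, Prim1, Rpa1 and Dtl) and in 33.8% of all windows. The cell cycle homology letters TTTGAA occurred in 0 of the 7 and in 15.99% of all. Windows of other genes on the lists given below were searched too, whether or not those genes were held. In 79 windows of other replication genes the shares were 16.5% (E2F), 48.1% (NF-Y) and 13.9% (TTTGAA). In 46 windows of mitotic genes they were 4.35%, 76.1% and 34.8%, so the NF-Y letters were not particular to the members. The 150 bases before the start are shown for the 4 members whose listed start is the end of the deposited row, because they show the motifs closest to the start, and 28 bases around the E2F letters are shown for Cdc6. Capitals mark E2F and NF-Y letters on either strand, and in Mcm6 a pair of E2F matches on opposite strands overlap in one run. Sequences read 5′ to 3′ on the strand of the gene.
Mcm6 (chr1:128359706-128359855, minus strand): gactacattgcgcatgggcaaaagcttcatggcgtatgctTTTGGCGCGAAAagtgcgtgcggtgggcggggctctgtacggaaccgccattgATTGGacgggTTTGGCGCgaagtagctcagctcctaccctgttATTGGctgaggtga
Dtl (chr1:191575545-191575694, minus strand): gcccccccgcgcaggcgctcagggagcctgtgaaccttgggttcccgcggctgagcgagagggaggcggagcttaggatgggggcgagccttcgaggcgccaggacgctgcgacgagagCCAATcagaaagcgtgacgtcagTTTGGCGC
Mcm3 (chr1:20820313-20820462, minus strand): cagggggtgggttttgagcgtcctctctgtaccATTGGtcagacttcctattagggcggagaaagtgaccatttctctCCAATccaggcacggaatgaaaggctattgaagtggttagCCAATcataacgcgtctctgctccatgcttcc
Prim1 (chr10:128015065-128015214, plus strand): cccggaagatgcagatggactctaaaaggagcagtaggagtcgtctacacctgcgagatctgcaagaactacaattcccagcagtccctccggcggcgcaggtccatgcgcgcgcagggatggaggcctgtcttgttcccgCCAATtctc
Cdc6 (chr11:98908003-98908030, plus strand): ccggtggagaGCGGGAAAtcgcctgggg
The E2F letters of Dtl end at the base before the start, and those of Mcm6 lie from 110 to 99 and from 47 to 40 bases before it. In Prim1, which fell in the exon 2-3 line (below), the only match to the letters searched was CCAAT from 9 to 5 bases before the start. Only exact letters were searched, so sites that differ from them by a base were not looked for.

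The deposited values are TPM, which scale the transcripts of each library to a fixed total and correct for transcript length, so that levels can be compared between genes. The rows held make up 15.2% to 17.1% of each library's total and lie on chromosomes 1, 10 and part of 11. The depth behind each value is unknown, so no counting interval is given. Atf4 itself is not among the genes analysed here, so the knockout was not checked at its own transcript. Defining cardiomyocyte genes were abundant in every group: the 6 held of 19 listed markers (Tnnt2, Tnni1, Myl4, Myl7, Pln and Hand1) summed to between 12510 and 18467 TPM per library. Of the neuronal markers, which matter because the extraction text names cultured neurons, 4 of 12 were held and summed to between 8.9 and 18.4 TPM, of which Dlg4, at group means of 10.3 to 11.8 TPM, made up most.

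Averaged over the 16 libraries, Mcm6 was the most abundant member in TPM (116), followed by Mcm3 (94.8), Rpa1 (81.4), Prim1 (39.5), Timeless (22.5), Dtl (22.4), Prim2 (19.4) and Cdc6 (13.6). The first 4 steps of this order (Mcm6, Mcm3, Rpa1, Prim1, Timeless) held in each of the 16 libraries, as did Prim2 over Cdc6. Timeless and Dtl could not be ranked, since Timeless was higher in 8 of 16 libraries. Dtl was above Prim2 in 15 of 16.

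In the exon 2-3 line the fitted difference was below 0 for 8 of 8 genes, as for 41.5% of all genes tested, and their means were lower in the cKO by 9.58% (Timeless) to 27.6% (Cdc6) of the control mean. The helicase loader Cdc6, the primase subunit Prim1 and the single-strand binding subunit Rpa1 fell past the threshold, an adjusted p under 0.05 over all genes tested, and the other 5 members did not. So 3 of 8 members were called lower, where 2.56% of all genes tested were. At an unadjusted p under 0.05, 7 of 8 members were lower, against 7.98% of all genes. The median log2 fold change of the members was -0.26, and that of all genes tested was 0.03. Tests were made with limma on log2(TPM + 1), a scale on which the changes of low genes are understated. In whole tissue, fewer cells in S phase and less RNA per cell cannot be told apart.

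**Figure D1:**
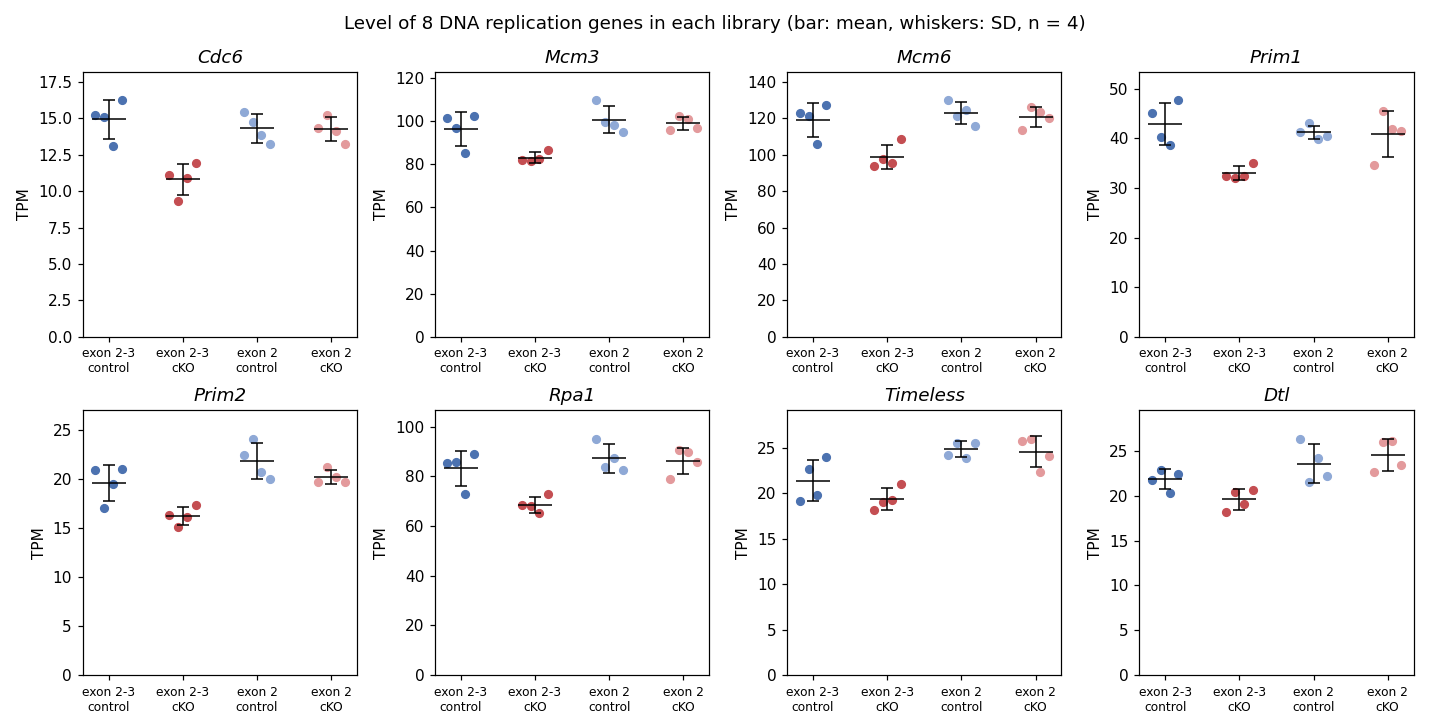
TPM (vertical axis, from 0) of each of the 8 members in each library, by group, with the mean (bar) and SD (whiskers) of 4 libraries. In the exon 2-3 line the cKO libraries of Cdc6 (9.33 to 11.9 TPM) and Prim1 (32.1 to 35.0 TPM) lie below every control, while in the exon 2 line the groups of all 8 genes overlap.

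Cdc6 (chromosome 11, 98907709 to 98923942 on GRCm38.p6, the build of all coordinates here) had 15.2, 15.1, 13.1 and 16.2 TPM in the exon 2-3 controls and 11.1, 9.33, 10.9 and 11.9 TPM in the cKO. Every cKO library was below every control, and cKO replicate 2 was the lowest of all. The mean fell from 14.9 ± 1.32 to 10.8 ± 1.08 TPM (SD, n = 4 each), a log2 fold change of -0.43 (SE 0.091, limma adjusted p 0.0244). This was the largest fall among the 8 members in this line.

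The helicase subunits were lower by smaller amounts and were not called. Mcm3 (chromosome 1, 20802966 to 20820312) had 101, 96.7, 85.3 and 102 TPM in the controls and 81.9, 81.4, 82.4 and 86.7 TPM in the cKO. The groups touched only where control replicate 3 dropped below cKO replicate 4. The log2 fold change of Mcm3 was -0.21 (95% interval -0.35 to -0.07, limma adjusted p 0.0860). Mcm6 (chromosome 1, 128331575 to 128359705) had 123, 121, 106 and 127 TPM in the controls and 94.1, 97.7, 95.6 and 109 TPM in the cKO. The same pair of libraries crossed, and its log2 fold change was -0.26 (95% interval -0.42 to -0.11, limma adjusted p 0.0533). The ratio of Mcm6 to Mcm3 within a library, which no scaling of the library can alter, was 1.24 ± 0.0176 in the controls and 1.19 ± 0.0475 in the cKO (SD, n = 4 each), with overlapping ranges.

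Of the primase subunits, Prim1 fell and Prim2 did not pass the threshold. Prim1 (chromosome 10, 128015215 to 128030030) had 45.0, 40.3, 38.6 and 47.7 TPM in the controls and 32.3, 32.1, 32.5 and 35.0 TPM in the cKO. Every cKO library lay below every control, and the cKO libraries other than replicate 4 were nearly equal. The log2 fold change of Prim1 was -0.37 (SE 0.073, limma adjusted p 0.0197). Prim2 (chromosome 1, 33453808 to 33669808) had 20.9, 17.04, 19.5 and 21.0 TPM in the controls and 16.3, 15.1, 16.1 and 17.3 TPM in the cKO. Only control replicate 2 and cKO replicate 4 crossed, and the log2 fold change was -0.26 (95% interval -0.44 to -0.08, limma adjusted p 0.0886). The ratio of Prim1 to Prim2 ran from 1.98 to 2.36 in the controls and from 1.99 to 2.13 in the cKO, so the primase pair gave no separation of the groups by its ratio.

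Rpa1 (chromosome 11, 75300259 to 75348454) had 85.5, 85.7, 72.8 and 89.0 TPM in the controls and 68.5, 68.0, 65.2 and 73.0 TPM in the cKO. The highest cKO library exceeded the lowest control (72.97 against 72.77 TPM), and otherwise the groups were apart. Its log2 fold change was -0.27 (SE 0.069, limma adjusted p 0.0439), the weakest of the called falls. Rpa1 shares 22 bases with Smyd4, a gene on the other strand with a mean of 7.79 TPM, and whether reads were counted by strand is not given in the sources used here.

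The fork protection gene and the ligase receptor had the smallest differences. Timeless (chromosome 10, 128232063 to 128252941) had 19.2, 22.6, 19.8 and 24.0 TPM in the controls and 18.1, 19.1, 19.2 and 21.0 TPM in the cKO. Its groups overlapped broadly, and its log2 fold change was -0.13 (95% interval -0.32 to 0.05, limma adjusted p 0.394). Dtl (chromosome 1, 191537356 to 191575544) had 21.8, 22.9, 20.3 and 22.5 TPM in the controls and 18.2, 20.5, 19.0 and 20.7 TPM in the cKO. Here too control replicate 3 lay below the highest cKO libraries, and the log2 fold change was -0.15 (95% interval -0.30 to -0.0037, limma adjusted p 0.222). Dtl shares 5 bases with Ints7 on the other strand, which had a mean of 33.2 TPM.

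All cKO libraries were below all controls for 2 of the 8 members, Cdc6 and Prim1, against 5.31% of all genes tested. Some libraries were the highest or lowest of their group for most members. Control replicate 3 was the lowest control for 6 of 8 members and control replicate 4 the highest for 7 of 8. Among the cKO libraries, replicate 4 was the highest for 8 of 8. It lay below every control for 2 of 8 members, whereas replicates 1, 2 and 3 did so for 8, 7 and 7. Summed over the members, the controls held 432, 422, 375 and 450 TPM and the cKO libraries 341, 343, 341 and 374 TPM, so that cKO replicate 4 and control replicate 3 differed by less than 1 TPM.

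**Figure D2:**
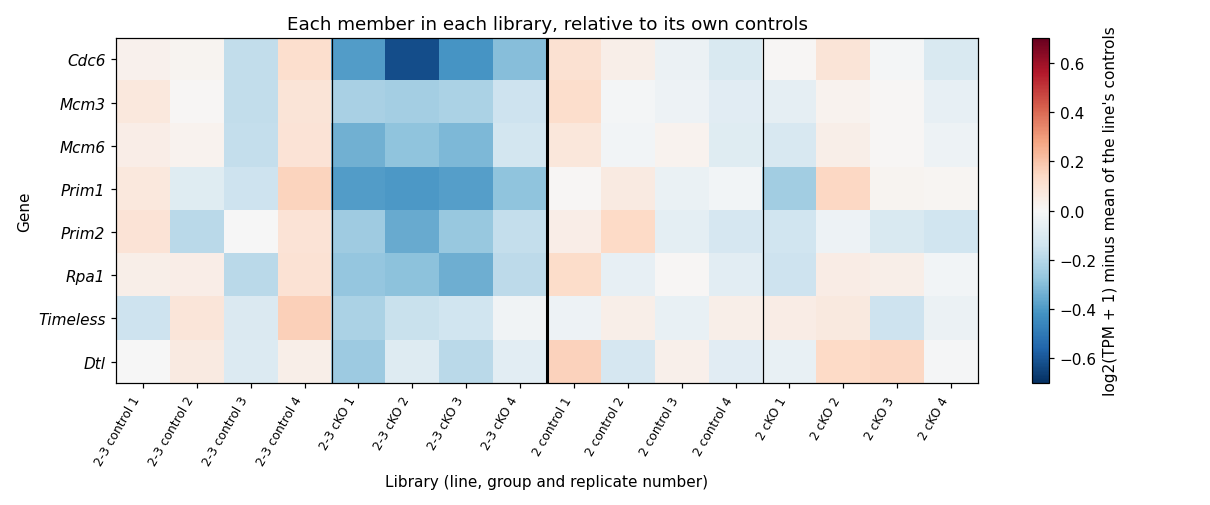
Each member (rows) in each library (columns) as log2(TPM + 1) minus the mean of the controls of the same line, blue for lower and red for higher. In the exon 2-3 line control replicate 3 is pale blue for most members and cKO replicate 4 is the palest of the cKO libraries for 8 of 8 members, while the exon 2 line shows no block of one colour.

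The number of members called moved with the scaling and with which library was left out. Setting each library's median to a common value, which takes out a shift shared by all genes of a library, called 7 of 8 members lower, Timeless being the exception, where 7.67% of all genes were called lower. With that scaling the cKO and control groups were apart for 7 of 8 members, against 11.8% of all genes. Of all calls in the line, 61.9% were higher in the cKO in the values as deposited and 41.4% with this scaling. Quantile normalisation also called 7 members (5.84% of all genes were called lower). Without control replicate 3, 5 members were called (Cdc6, Mcm3, Mcm6, Prim1 and Rpa1), but 0 were called without control replicate 1, cKO replicate 1, cKO replicate 2 or cKO replicate 3, where the adjusted p lay between 0.0525 and 0.0656 for Prim1 and between 0.0501 and 0.0750 for Cdc6. Over all genes, 190 were called without control replicate 3, against 176 with every library, and 80, 95, 93 and 70 without those other libraries in turn. Without control replicate 2 the count of members was 2, with 95 genes called in all. Without control replicate 4 it was 2, with 174 in all, and without cKO replicate 4 it was 3, with 100 in all. The direction was lower for each of the 8 members in all 17 alternatives run.

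**Figure D3:**
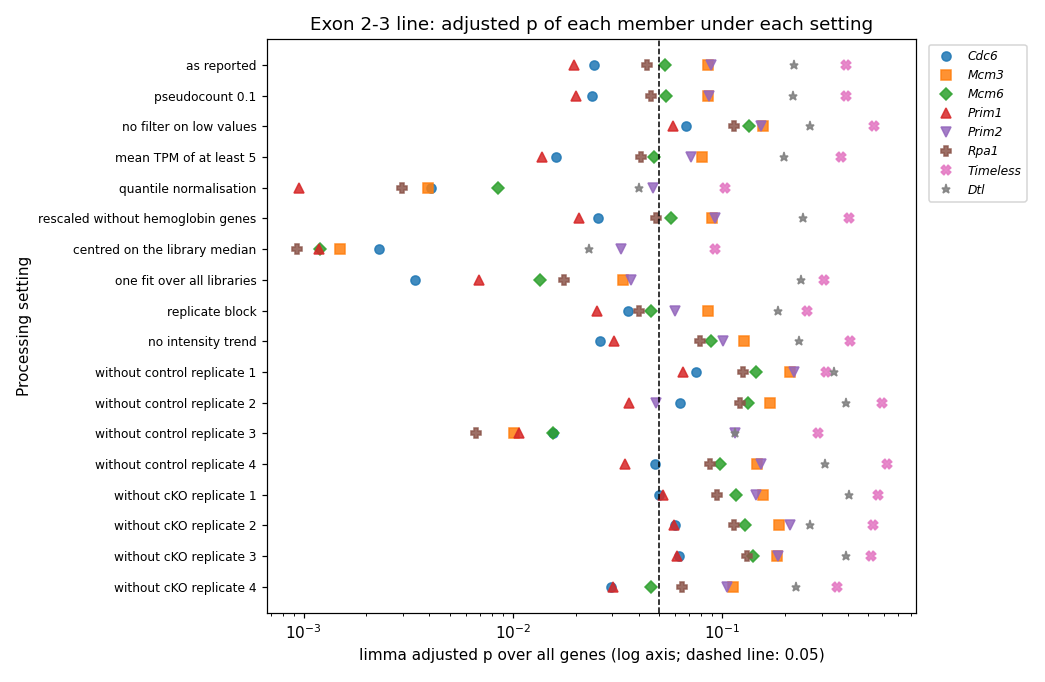
Adjusted p (log axis) of each member in the exon 2-3 line under each processing setting, with the threshold of 0.05 dashed. Prim1 stays left of the line in 12 of 17 alternatives and Cdc6 in 11, Rpa1 in 8, and Timeless in 0.

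Markers of some other cells moved with this comparison. Of the myeloid markers 4 were tested, of the endothelial 1 (Ramp2) and of the neuronal 1 (Dlg4), and 0 of these were called. Of the epicardial markers, 2 of 8 were held, Tcf21 and Krt19, and both rose in the exon 2-3 cKO, with log2 fold changes of 0.70 and 0.41 (limma adjusted p 0.000969 and 0.0143). Their summed level was 116 to 131 TPM in the controls and 168 to 191 TPM in the cKO. Of the mesenchymal markers, 4 of 9 were held (Col1a1, Col3a1, Dcn and Lum), 3 rose past the threshold, and the sum was 222 to 251 TPM in the controls and 339 to 373 TPM in the cKO. The cardiomyocyte sum overlapped between the groups, at 16997 to 18467 and 16492 to 17479 TPM, and 1 of its 6 genes, Hand1, fell. The erythroid markers (5 of 11 held) were not called, but their sum spread more widely in the cKO, from 1514 to 11300 TPM, than in the controls, from 2997 to 4559 TPM. The highest was cKO replicate 4, the library in which the members were also highest of their group. The next was cKO replicate 2, at 5922 TPM, which was the lowest cKO library for 4 of 8 members. Rescaling without the 3 hemoglobin rows held left the count of members called at 3. The listed beta globins were not held and so not removed. The rescaling hardly altered the values (Cdc6 from -0.432 to -0.431), so it could not show what the erythroid spread does to the members. In the exon 2 line none of these markers was called, and the epicardial sums were 108 to 125 and 99.5 to 121 TPM. The part of these shifts in the lower replication genes was not tested.

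In the exon 2 line 0 of the 8 genes passed the threshold with limma, where 0.0763% of all genes tested were called and 0.00% were called lower. At an unadjusted p under 0.05 the count was also 0 of 8, against 3.21% of all genes. The cKO and control libraries overlapped for each of the 8 members, while they did not overlap for 1.83% of all genes. The log2 fold changes ran from -0.11 (Prim2) to 0.06 (Dtl), with a median of -0.02, and the median of all genes was -0.01. For Cdc6 the controls had 15.5, 14.7, 13.9 and 13.2 TPM and the cKO libraries 14.4, 15.3, 14.2 and 13.2 TPM, groups that lie within the same range. Its log2 fold change was -0.01 with a 95% interval from -0.17 to 0.16. Prim1 had 41.3, 43.0, 39.8 and 40.5 TPM in the controls and 34.6, 45.6, 41.8 and 41.5 TPM in the cKO, so the cKO libraries both opened and closed the range. Its interval ran from -0.19 to 0.16. Rpa1 had 95.3, 83.7, 87.5 and 82.6 TPM in the controls and 78.8, 90.5, 89.7 and 86.0 TPM in the cKO, with an interval from -0.16 to 0.13.

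The helicase subunits overlapped between the groups in this line. Mcm3 had 110, 99.7, 98.2 and 95.03 TPM in the controls and 96.1, 102, 101 and 96.7 TPM in the cKO (95% interval -0.15 to 0.10). Mcm6 had 130, 121, 125 and 116 TPM in the controls and 114, 126, 124 and 120 TPM in the cKO (95% interval -0.15 to 0.10). Control replicate 1 was the highest control for 5 of 8 members, and cKO replicate 1 was the lowest cKO library for 6 of 8.

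The remaining members also overlapped between the groups in the exon 2 line. Prim2 had 22.5, 24.1, 20.7 and 20.0 TPM in the controls and 19.6, 21.2, 20.2 and 19.7 TPM in the cKO, lower on average with overlap (95% interval -0.26 to 0.05). Timeless had 24.2, 25.6, 23.9 and 25.6 TPM in the controls and 25.7, 26.0, 22.3 and 24.1 TPM in the cKO (95% interval -0.16 to 0.13). Dtl had 26.4, 21.6, 24.2 and 22.2 TPM in the controls and 22.6, 26.0, 26.1 and 23.4 TPM in the cKO, the one member with a higher mean in the cKO (95% interval -0.12 to 0.23). For Prim2 and Timeless the interval here includes the log2 fold change estimated in the exon 2-3 line, and for the other 6 members it does not, which takes no account of the error of that estimate.

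Whether the knockout effect differed between the lines was tested by an interaction term over all 16 libraries, in which line and batch cannot be told apart. The term was negative for all 8 members, against 40.3% of all genes, but 0 of 8 passed an adjusted p of 0.05, where 0.763% of all genes were called in that direction. The largest belonged to Cdc6 (-0.43, SE 0.12, limma adjusted p 0.0669) and Prim1 (-0.35, SE 0.11, limma adjusted p 0.113). With limma at an unadjusted p under 0.05, 5 of 8 members had a negative term (Cdc6, Prim1, Mcm6, Rpa1 and Mcm3), against 4.85% of all genes. Median centring called 5 members (2.33% of all genes were called in that direction), quantile normalisation 4 (2.37%) and weights for each library 4 (2.18%). When 1 library was left out 0 or 1 members were called, beside 36 to 84 genes in all, in either direction. Dtl, Prim2 and Timeless were called in 0 of the 25 alternatives.

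**Figure D4:**
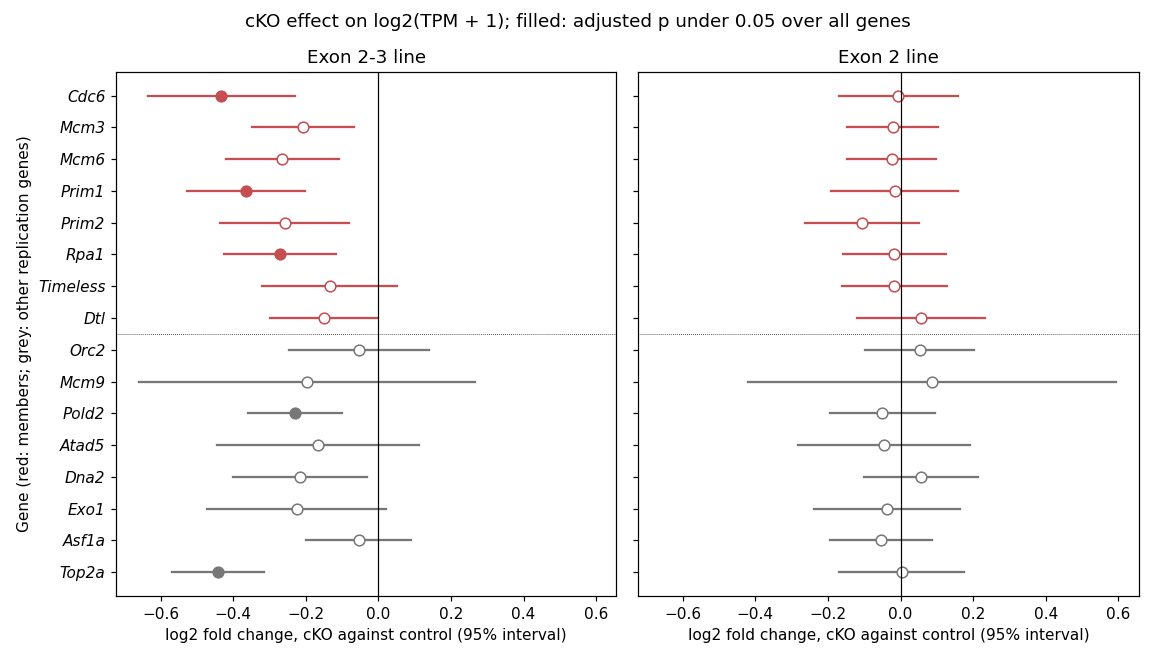
Log2 fold change of cKO against control (point) with its 95% interval (line) for the 8 members (red) and the 8 other replication genes held (grey), in each line. Filled points passed an adjusted p of 0.05: Cdc6, Prim1, Rpa1, Pold2 and Top2a in the exon 2-3 line and none in the exon 2 line.

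The control groups of the lines, which differ in line and in batch together, were close in level for most members. In the values as deposited 1 of 8 was called lower in the exon 2-3 controls, Timeless, at 21.4 ± 2.31 against 24.8 ± 0.873 TPM (SD, n = 4 each; log2 difference -0.21, limma adjusted p 0.0252), while 38.1% of all genes were called lower. That call was lost after median centring, where the difference was -0.03 (adjusted p 0.766), after quantile normalisation (-0.08, adjusted p 0.334), and in 4 of 16 fits without 1 library (control replicates 1 and 3 of the exon 2-3 line, 2 and 4 of the exon 2 line; largest adjusted p 0.0910). Median centring instead called 5 members higher in the exon 2-3 controls, where 27.8% of all genes were called higher, Mcm3, Mcm6 and Rpa1 among them with signs opposite to those in the deposited values, so no direction is given for the members between control groups. The median difference over all genes was -0.14 as deposited and 0.04 after centring.

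A wider list of 90 replication genes put the members in context. Of these, 16 were held and tested, among them the 8 members, and 8 others. In the exon 2-3 line 2 of the 8 others were called lower and 0 higher, where 2.56% of all genes tested were called lower. Their median log2 fold change was -0.21, beside 0.03 for all genes. Top2a, the topoisomerase that untangles replicated DNA, had 154, 152, 134 and 144 TPM in the controls and 104, 111, 103 and 111 TPM in the cKO. Its groups did not overlap, and its log2 fold change was -0.44 (limma adjusted p 0.00213). It kept its call in all 17 alternatives. Pold2, the accessory subunit of DNA polymerase delta, had 66.0, 66.5, 59.9 and 68.8 TPM in the controls and 53.0, 55.0, 55.2 and 58.8 TPM in the cKO. It also showed no overlap, with a log2 fold change of -0.23 (limma adjusted p 0.0436), and it lost its call in 10 of the 17 alternatives, to a largest adjusted p of 0.119 without control replicate 1.

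The other 6 were not called in the exon 2-3 line. Their log2 fold changes were -0.23 for the exonuclease Exo1, -0.22 for the helicase and nuclease Dna2, -0.20 for Mcm9, -0.17 for the clamp unloader Atad5, and -0.05 each for the histone chaperone Asf1a and the origin subunit Orc2. Orc2, which like Cdc6 acts at the origin, had 20.7, 19.8, 16.8 and 20.5 TPM in the controls and 19.2, 16.4, 19.2 and 20.0 TPM in the cKO. Its groups overlapped, while those of Cdc6 did not, and the difference between these genes was not tested. Mcm9 and Asf1a overlap by 12265 bases on opposite strands, so their values are uncertain, and Mcm9 ranged from 3.71 to 8.60 TPM among the cKO libraries alone. In the exon 2 line 0 of the 8 were called, with log2 fold changes of 0.09 (Mcm9), 0.06 (Dna2), 0.05 (Orc2), 0.00 (Top2a), -0.04 (Exo1), -0.05 (Atad5), -0.05 (Pold2) and -0.05 (Asf1a). The interaction term passed for Top2a alone (-0.45, limma adjusted p 0.0236), and it lost its call in 8 of 25 alternatives. Between the control groups, Exo1 (-0.35), Atad5 (-0.31) and Top2a (-0.23) were called lower in the exon 2-3 controls, as were 38.1% of all genes. Median centring ended these 3 calls and called 3 other genes of the list higher in those controls, Orc2, Pold2 and Asf1a.

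Genes of mitosis, which act after S phase, were set beside them. Of a list of 51, 10 were held, and 7 of 10 were called lower in the cKO of the exon 2-3 line, where 2.56% of all genes tested were. Their median log2 fold change was -0.36, beside -0.26 for the members and -0.21 for the other replication genes. The called genes were Cdk1, Cenpf, Nuf2, Hmmr, Aspm, Nek2 and Spag5, with log2 fold changes between -0.43 and -0.35. In the exon 2 line 0 of 10 were called, as against 0.0763% of all genes tested, and the median was 0.00. Whether mitotic and replication genes differed in size of effect was not tested.

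The genes most like the members in pattern were found by Pearson's r over the 16 libraries, after each line was centred on its own mean, against the average of the 8 members. The top 5 of the other genes tested were Fignl1 (r 0.917), Spag5 (0.909), Pold2 (0.908), Cdk1 (0.906) and Cdk2 (0.905). They were picked for this likeness out of all genes tested, so no p-value is given here, and all points share the scaling of their library. Centring on the line mean kept the members' difference between cKO and control in the pattern. A fall in the exon 2-3 line alone is thus part of what was picked, and the values below describe these genes only. Fignl1, an ATPase known from recombination repair, averaged 43.2 TPM in the exon 2-3 controls and 30.5 TPM in the cKO (log2 fold change -0.49), and 44.3 and 45.4 TPM in the exon 2 groups. Cdk2, the kinase that drives entry into S phase, averaged 70.7 and 60.7 TPM in the exon 2-3 groups (log2 fold change -0.22) and was 70.0 and 71.0 TPM in the exon 2 groups.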

How the data were processed

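RNA-seq of 16 ventricle samples gave 1 table. The authors deposited TPM values, 1 column per library. The submitters' processing notes name GRCm38, Trim Galore 0.6.7, HISAT2 2.2.1, StringTie 2.2.1, featureCounts and DESeq2, with no role or order. Per the labels, library preparation is given both as stranded mRNA and as ribosomal RNA depletion. The table was held in part (5921 complete rows; 1 incomplete row was dropped), and coordinates of 5919 rows equal those of RefSeq on GRCm38.p6. Genes with a mean of at least 1 TPM over all libraries were tested on log2(TPM + 1) with limma 3.58.1 in R 4.3.3 (lmFit, eBayes with intensity trend), each line on its 8 libraries, the interaction and the control comparison in a group means model over 16. P-values are two-sided, with Benjamini-Hochberg adjustment over 2620 genes. P-values weigh each difference against the spread between libraries of a group, moderated over all genes. The sample titles number the libraries as replicates and do not say whether each came from a single embryo. The code was tested on simulated data. Members, gene lists and the rule for named genes (members, held list genes, mitotic genes called, and the 5 most alike) were chosen with earlier results of these data known. Library ranks, subunit ratios and non-overlap after centring were added after the values were seen. Depth is unknown, since TPM keeps none, so precision rests on the 4 libraries per group. Alternatives are given in the closing section. Tables and figures used pandas 2.3.3 and matplotlib 3.10.9.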

Additional observations from a re-analysis of the deposited data

Results flagged for a closer look

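Prim1 in exon 2-3 cKO replicate 4, at 34.98 TPM, stood apart from the other cKO libraries of its group, which lay between 32.1 and 32.5 TPM. Its gap to the nearest library was more than 0.829 of the group's range. The test was made on 32 groups of 4 values (8 genes in 4 groups), and chance marks about 1 in 20 groups. The same library was the highest of its group for 8 of 8 members and still lay below every control for Prim1.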

How the results depend on the processing

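In the exon 2-3 line each of the 8 members stayed lower in all 17 alternatives, but the calls moved. Against 3 members, 2 other replication genes and 176 genes in all, no filter on low values gave 0, 1 and 95, quantile normalisation 7, 3 and 309, median centring 7, 3 and 343, and one fit over all libraries 6, 2 and 236. Without the intensity trend 2 members and 1 other replication gene were called, beside 160 genes in all. Leaving out 1 library gave 0 to 5 members, 1 to 3 other genes and 70 to 190 genes in all. In the exon 2 line 0 members were called in each of the 17 alternatives, and 2 genes in all became 4 in one fit over all libraries and 2 to 4 without 1 library. For the interaction, quantile normalisation gave 4 members, 2 other genes and 133 in all, and median centring 5 members and 127 in all. Array weights gave 4, 2 and 136, and no filter 0 other genes and 42 in all. The fits without 1 library gave 0 to 1, 0 to 1 and 36 to 84. Between the controls, 1 member and 1377 genes in all were called as reported. Quantile normalisation gave 3 members and 1332 genes, median centring 5 and 1263, and leaving out 1 library 0 to 1 members and 1190 to 1401 genes. The causes were not tested.

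Some values turned sign. In the exon 2 line quantile normalisation gave 0.0087 for Mcm6, 0.00034 for Cdc6, 0.00094 for Prim1 and 0.0021 for Rpa1, and leaving out 1 library gave ranges of -0.049 to 0.020 (Mcm3), -0.053 to 0.0046 (Mcm6), -0.041 to 0.030 (Cdc6), -0.070 to 0.059 (Prim1), -0.042 to 0.026 (Rpa1), -0.044 to 0.026 (Timeless), -0.18 to 0.21 (Mcm9), -0.098 to 0.030 (Atad5), -0.092 to 0.020 (Exo1) and -0.041 to 0.066 (Top2a). In the exon 2-3 line they were -0.12 to 0.0048 (Orc2) and -0.31 to 0.031 (Mcm9). Between the controls, median centring gave 0.12 for Mcm3, 0.13 for Mcm6, 0.032 for Prim2, 0.11 for Rpa1 and 0.079 for Dtl (Mcm3, Mcm6 and Rpa1 were called), quantile normalisation 0.021 for Dtl, and leaving out 1 library -0.079 to 0.0096 for Mcm6.

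The groups share replicate numbers. Deviations of same-numbered libraries correlated between -0.029 and 0.211 in the exon 2-3 line and between 0.064 and 0.200 in the exon 2 line. The best partner had the same number for 1 of 4 pairs in the exon 2-3 line and 3 of 4 in the exon 2 line. The numbers were not taken as pairs, though for the exon 2 line these values do not settle the question. With a replicate block 4 members, 1 other replication gene and 149 genes were called in the exon 2-3 line, 0 members and 2 genes in the exon 2 line, and 0 members, 1 other gene and 68 genes for the interaction. A block could not be fitted for the control comparison, where line and number are nested.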
